A study of Mus musculus with 9 samples.

Results

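The spliceosome genes described here are the protein-coding genes of the GENCODE M21 annotation (build GRCm38) whose symbol begins with Snrp, Lsm, Sf3a, Sf3b, Prpf or U2af. Membership rests on these letters alone, but the letters were chosen with earlier results of these data known. The members number 51 of the 21647 protein-coding genes, and of the 45321 genes of any type, in the tables. The letters also take in Lsm1, Lsm10, Lsm11, Lsm12, Lsm14a and Lsm14b, whose products act mainly outside the spliceosome, and Lsmem1, a membrane protein gene that shares only the letters. Of the 51 members, 50 passed the filter on low counts. Snrpn, the mainly neuronal copy of Snrpb, did not, with at most 0.130 CPM (counts scaled to a common library size) in any library.

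The cells were CD4+ T cells from the spleen of C57BL/6 mice, purified untouched, that is, without antibody on the CD4+ cells themselves. All were first kept for 1 h either in the vehicle DMSO or in 12.5 µM Compound 10, which the series presents as an inhibitor of NFAT:AP-1, a complex of transcription factors that acts in T cell activation. Next they either stayed unstimulated or received 10 nM PMA, an activator of protein kinase C, together with the calcium ionophore ionomycin at 1 µM, for 2 h. There were 2 libraries of unstimulated vehicle cells, 2 of unstimulated compound 10 cells, 2 of stimulated vehicle cells and 3 of stimulated compound 10 cells. Whether libraries of 1 group stem from separate mice or cultures is not stated in the labels, and the p-values therefore reflect just the spread among these libraries, which may be technical.

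The spliceosome removes introns from newly made RNA. Its snRNPs each hold a small nuclear RNA and proteins: U1 recognises the 5′ splice site, U2 the branch point with the help of U2AF at the 3′ splice site, and the U4/U6.U5 tri-snRNP then joins before catalysis. A ring of Sm proteins encircles the U1, U2, U4 and U5 RNAs, and a related ring of LSm proteins, Lsm2 to Lsm8, holds the end of U6. T cells that are activated enlarge and make more RNA before they divide, and splicing factors are among the genes whose expression changes in that response.

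Libraries held 10669821 to 21852830 estimated counts, of which the 51 members took 0.196% to 0.331%. Nuclear ribosomal RNA took 1.81% to 26.7%, and was most abundant in vehicle library 2 of each state (26.7% unstimulated and 14.0% stimulated, against 4.82% and 3.64% in the other vehicle library). The CD4+ T cell markers were present in every library, with a summed level of 730 to 2103 CPM for 7 genes. The summed levels of the marker lists of B cells (6 genes, 20.8 to 62.5 CPM), natural killer cells (6 genes, 7.50 to 29.5 CPM), monocytes with macrophages and dendritic cells (7 genes, 7.71 to 12.3 CPM), CD8 T cells (2 genes, 4.41 to 7.33 CPM), neutrophils (5 genes, 1.31 to 6.16 CPM) and erythroid cells with platelets (7 genes, 1.63 to 23.6 CPM) were far lower.

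The members spanned a wide range of abundance. Per length, in TPM (transcripts scaled for length and library size), Snrpg was the most abundant member in each of the 4 groups, at 930 ± 31.03 TPM in stimulated vehicle cells (SD, n = 2). Snrpb and Snrpe came next there, at 379 ± 61.4 and 330 ± 5.70 TPM. These 2 did not overlap in their libraries, but their order was reversed in unstimulated vehicle cells, where Snrpe stood at 300 ± 53.0 and Snrpb at 275 ± 115 TPM with overlapping libraries. All 3 belong to the Sm ring, as does Snrpf, the fourth at 143 ± 3.65 TPM. Sf3b4, Sf3b6 and Snrpd1 followed at 115 ± 48.1, 115 ± 3.42 and 110 ± 2.54 TPM. Lsmem1 at 0.204 ± 0.0720 TPM and Prpf40b at 0.0995 ± 0.0926 TPM stood lowest among the tested members, with overlapping libraries.

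The first comparison asked how compound 10 changed these genes in stimulated cells. Of the 50 tested members, 21 (42%) were lower with the compound than with vehicle, and 1, Lsm4, was higher, by edgeR's quasi-likelihood test at a Benjamini-Hochberg adjusted p under 0.05. At that threshold, 11.4% of all 14011 genes tested were lower and 11.7% were higher. Of the 11373 protein-coding genes among them, 13.6% were lower and 13.8% higher. The called decreases ranged from 27.5% for Snrpc to 61.1% for Prpf3, and the median log2 difference over the members was -0.55, against 0.0019 over all genes tested. Summed over the members, the level was 2323 ± 60.7 CPM (SD, n = 3) with the compound and 3242 ± 171 CPM (n = 2) with vehicle, in groups that did not overlap. In bulk samples a lower level cannot be told apart from fewer cells that express the gene. On log2(TPM + 1) limma called 7 members lower and 1 higher, against 638 lower and 557 higher of all 14011 genes tested. Without stimulated vehicle library 1 the members' median log2 difference was -0.52 by edgeR, against 0.02 over all genes. Without both vehicle libraries richest in ribosomal RNA it was -0.56, against 0.06 over all genes.

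**Figure D1:**
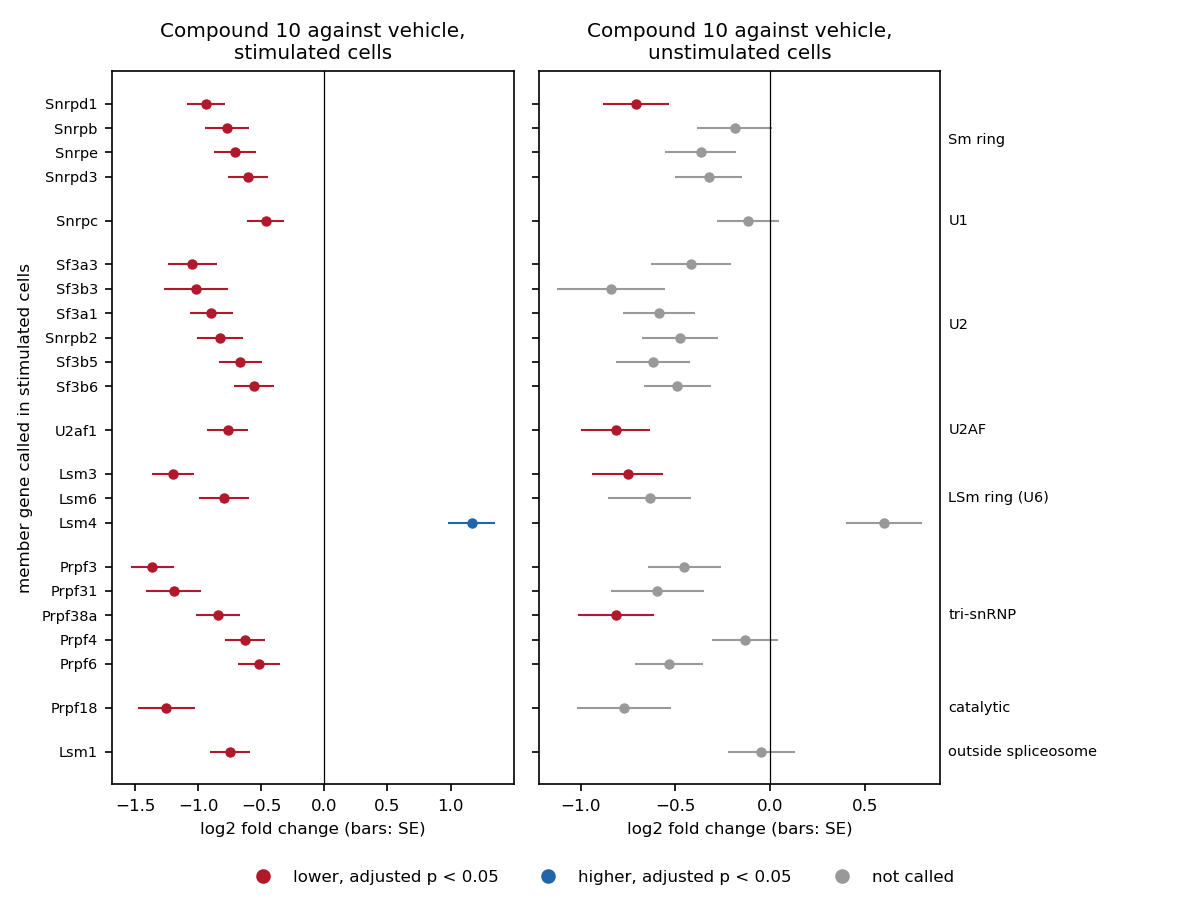
Log2 fold changes with compound 10 against vehicle, in stimulated cells (left) and unstimulated cells (right), of the members called in stimulated cells, ordered by role, with bars for the SE. Red points are lower (21 on the left, 4 on the right) and the blue point, Lsm4, is higher at an adjusted p under 0.05, and the members not called in stimulated cells are not drawn.

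In the Sm ring, which forms the core of most snRNPs, 4 of 7 tested members were lower with compound 10 in stimulated cells. Snrpd1, the D1 subunit, stood at 42.7, 45.1 and 49.1 CPM with the compound and at 84.3 and 90.3 CPM with vehicle. Its log2 difference was -0.94 (SE 0.15, edgeR adjusted p = 0.000969), and every compound library was below both vehicle libraries. Snrpb, the subunit shared by most Sm rings, fell by 0.77 on the log2 scale, from 490 and 404 CPM to 247, 259 and 281 CPM. The called members also included Snrpe at -0.71 and Snrpd3 at -0.61. The other 3 gave -0.35 for Snrpf, -0.02 for Snrpd2 and 0.11 for Snrpg, none past the threshold. Snrpd2 and Snrpg lay on the other side of 0 in at least 1 other scaling. The ring summed to 810 ± 39.2 CPM with the compound and 1119.6 ± 41.5 CPM with vehicle, without overlap.

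Among the 5 genes of U1 and its partners, only Snrpc, the C protein of U1 that stabilises pairing at the 5′ splice site, was called, at -0.46 (SE 0.15, edgeR adjusted p = 0.0396). Snrpa, the A protein of U1, gave -0.32, and the U1-associated gene Prpf39 gave -0.64 with a wide error (SE 0.30). Prpf40b, at under 1 CPM, gave 0.80 (SE 0.77). The 2 SF3 complexes of the U2 snRNP grip the branch point, and 6 of the 11 U2 genes were lower. Sf3a3 stood at 25.2, 26.0 and 30.9 CPM with the compound against 59.97 and 52.9 CPM with vehicle, a log2 difference of -1.05 (SE 0.19, edgeR adjusted p = 0.0022). Sf3a1 stood at 32.3, 25.3 and 26.6 CPM against 55.2 and 49.2 CPM, a difference of -0.90 (SE 0.17, edgeR adjusted p = 0.0027). Neither gene overlapped between the groups, while on the TPM scale neither was called by limma.

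Of the other U2 genes, Sf3b3 (-1.02), Snrpb2 (-0.83), Sf3b5 (-0.67) and Sf3b6 (-0.56) also fell. Sf3b1, the large subunit that contacts the branch point and is often mutated in blood cancers, was not called, at 107, 74.3 and 109 CPM with the compound and 85.6 and 146 CPM with vehicle. Its groups overlapped. Sf3b2 gave -0.10, Snrpa1 -0.29, Sf3b4 -0.60 and Sf3a2 -0.65, none of them called. All 11 log2 differences of the U2 genes were negative. In U2AF, the small subunit U2af1, which reads the AG at the 3′ end of introns, fell by 0.76 on the log2 scale, from 55.6 and 62.5 CPM to 33.3, 37.7 and 33.1 CPM, while its partner U2af2, which binds the pyrimidine tract, gave 0.16 and U2af1l4 gave -0.09, neither called.

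The LSm ring of U6 held members on both sides. Lsm3 stood at 14.0, 16.1 and 16.8 CPM with the compound and at 34.9 and 37.0 CPM with vehicle, a log2 difference of -1.20 (SE 0.17, edgeR adjusted p = 0.000404). Lsm4 stood at 37.7, 41.6 and 35.1 CPM against 18.7 and 15.2 CPM, a difference of 1.17 (SE 0.19, edgeR adjusted p = 0.000999). The groups did not overlap for either gene, so 2 subunits of the same ring differed in opposite directions by similar sizes. Lsm6 was lower, at -0.80. Lsm2, Lsm5, Lsm7 and Lsm8 were not called, at -0.47, -0.02, -0.56 and -0.19. Neither Lsm3 (chr6:91515928-91522625) nor Lsm4 (chr8:70673248-70678752) shared any 31-base stretch of its main transcript with another gene, and both calls held in each of the other fits and in each fit that left out 1 library.

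The tri-snRNP group, which brings U4, U6 and U5 to the assembling spliceosome, held 5 lower members of 8, and all 8 log2 differences were negative. Prpf3 (chr3:95830124-95855885), a U4/U6 protein in which mutations cause retinitis pigmentosa in humans, stood at 13.5, 11.1 and 11.9 CPM with the compound and at 31.1 and 31.4 CPM with vehicle. Its difference of -1.36 (SE 0.17, edgeR adjusted p = 0.000258) was the largest decrease among the tested members. Prpf31 (chr7:3629985-3642486), which binds the U4 RNA and is another retinitis pigmentosa gene, stood at 9.70, 14.1 and 10.8 CPM against 22.2 and 30.8 CPM, a difference of -1.19 (SE 0.22, edgeR adjusted p = 0.00213). For both genes each compound library lay below both vehicle libraries.

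Prpf38a (chr4:108563172-108579336), which joins with the tri-snRNP and is needed for activation, stood at 26.7, 29.2 and 32.6 CPM with the compound and at 53.5 and 52.5 CPM with vehicle. The difference was -0.84 (SE 0.18, edgeR adjusted p = 0.00456), without overlap, and was not called by limma on the TPM scale. Prpf4, the partner of Prpf3, fell by 0.63 and Prpf6, a U5 bridging protein, fell by 0.52 on the log2 scale. Prpf8, the U5 protein at the heart of the catalytic centre, gave -0.54 and was not called, and its levels were 29.2, 20.6 and 36.1 CPM against 40.5 and 42.3 CPM. Prpf4b, a kinase, gave -1.08 with an SE of 0.44, and Prpf38b gave -0.42.

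Of the genes for the catalytic stage, Prpf18 (chr2:4622058-4652113), which acts in the second step of splicing, stood at 19.5, 11.5 and 17.5 CPM with the compound and at 38.1 and 38.8 CPM with vehicle. The log2 difference was -1.25 (SE 0.23, edgeR adjusted p = 0.00196), again without overlap. Prpf19, a ubiquitin ligase that scaffolds the active complex, gave -0.26 and was not called. Among the 7 members outside the spliceosome, only Lsm1 fell, by 0.75 on the log2 scale. Lsm1 takes the place of Lsm8 in the cytoplasmic ring that promotes mRNA decay. The other 6 gave 0.01 to 0.80 and none was called, among them Lsm10 and Lsm11 of the U7 snRNP, which processes histone mRNA, at 0.35 and 0.20, and the mRNA-repressing Lsm14a and Lsm14b at 0.01 and 0.39. Lsm14a lay below 0 in 5 of 6 other scalings.

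**Figure D2:**
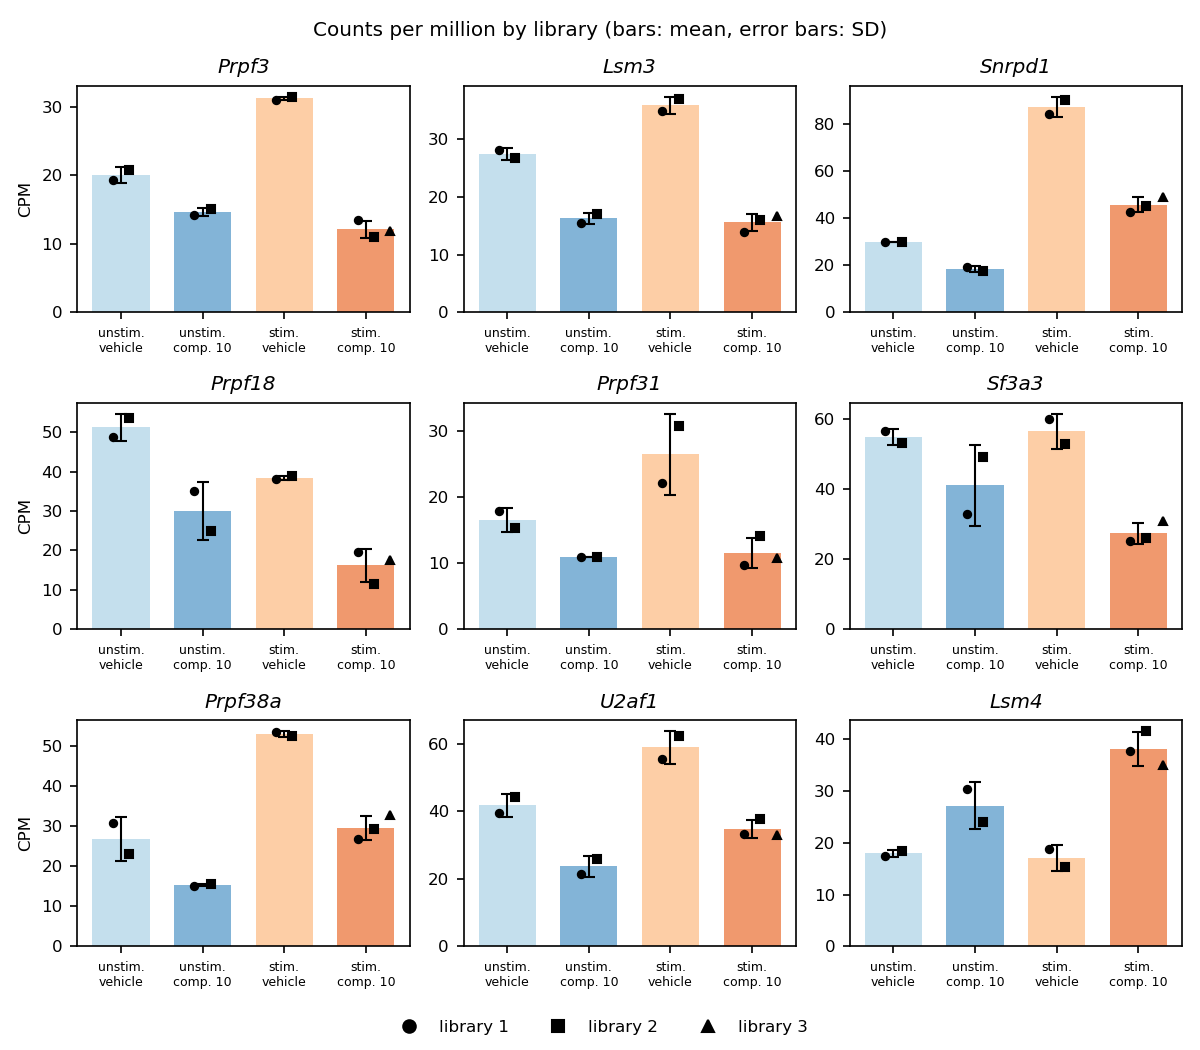
CPM of 9 members in each library, with bars for the group mean and error bars for the SD. The stimulated compound 10 libraries lie below both stimulated vehicle libraries for 8 of the genes and above them for Lsm4 (35.1 to 41.6 against 15.2 and 18.7 CPM). All 9 were drawn from the members called in stimulated cells, so this separation largely follows from the choice.

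**Figure D3:**
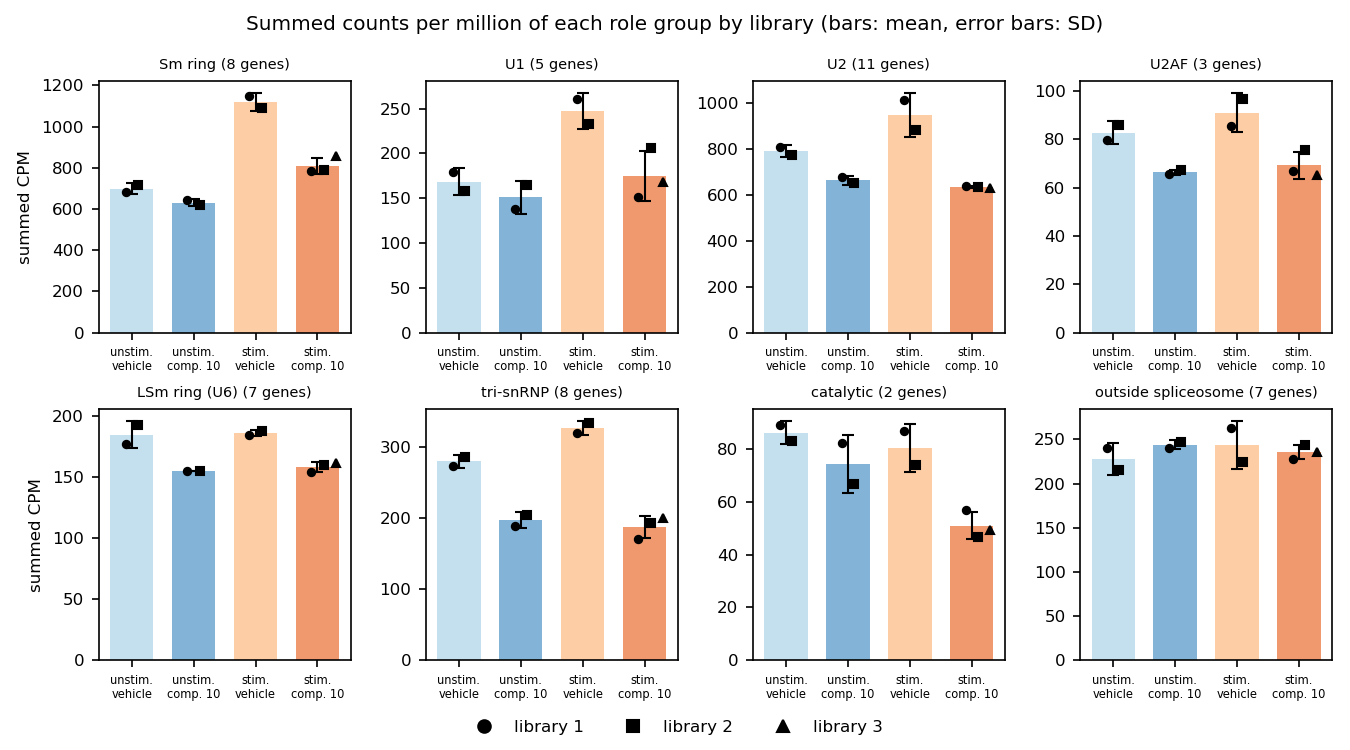
Summed CPM of the members of each role group in each library, with bars for the mean and error bars for the SD. In stimulated cells the tri-snRNP sum was 188 ± 15.3 CPM with compound 10 and 326 ± 10.0 CPM with vehicle, whereas the sum of the members outside the spliceosome was 236 ± 7.49 and 244 ± 26.9 CPM.

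Several values moved with the compound beside these genes. In stimulated cells the 7 CD4+ T cell markers summed to 2031 to 2103 CPM with the compound and 1431 to 1868 CPM with vehicle, and 5 of them (Cd3e, Cd3g, Cd4, Cd5 and Lck) were called higher. The 6 natural killer cell markers summed to 20.8 to 29.5 CPM against 18.2 to 20.2 CPM, and 4 of them (Klrb1c, Klrd1, Gzma and Prf1) were called higher, with none at 0. The fifth tested one, Eomes, was not called and averaged 5.78 CPM with the compound and 12.3 CPM with vehicle, without overlap. Ribosomal RNA took 1.81% to 9.77% of the counts with the compound and 3.64% and 14.0% with vehicle. The part of these values in the differences of the spliceosome genes was not tested.

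RefSeq promoter windows, from 250 bases before to 50 after the start (GRCm38.p6), were matched by symbol for 41 members, of which 16 were lower with the compound in stimulated cells. The letters CCGGAAG of the ETS factor motif, searched on both strands, were found in 14 of the 41 windows (34.2%). They were found in 9.12% of all 27025 windows and in 19.4% of the 9477 windows of genes tested here. Among the 16 lower members with a window 8 held them, and among the other 25 members 6 did. AP-1 letters (TGANTCA) were in 2 of the 41 windows (4.88%), against 7.93% of all windows and 4.72% of those of tested genes, and the short NFAT core GGAAA was in 26 (63.4%), against 61.3% and 59.2%. By call, the AP-1 letters were in 1 of the 16 lower members and 1 of the other 25, and the NFAT core in 13 of the 16 and 13 of the other 25. These splits were not tested. The NFAT core shares GGAA with the ETS letters, but neither it nor the AP-1 letters are contained in them. A match to these letters is a description of the sequence only. To show the ETS letters, the 100 bases before the RefSeq start are given for 5 lower members. These are the 5 with the smallest p that hold the ETS letters there. The sequences run 5′ to 3′ on the strand of the gene, which is the plus strand for all 5, with the match in capitals. The RefSeq starts lie downstream of the start of the gene in GENCODE M21, by 4 to 85 bases for Sf3a1, Snrpb2, Sf3b6 and Sf3a3 and by 1937 bases for Snrpc, so the stretches reach into those gene models, and that of Snrpc lies wholly inside.
Sf3a3 chr4:124714761-124714860: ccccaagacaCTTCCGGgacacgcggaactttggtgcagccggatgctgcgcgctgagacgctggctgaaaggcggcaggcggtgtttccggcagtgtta
Sf3a1 chr11:4160254-4160353: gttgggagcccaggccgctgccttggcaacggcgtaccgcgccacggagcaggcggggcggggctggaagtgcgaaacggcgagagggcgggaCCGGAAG
Snrpb2 chr2:143062969-143063068: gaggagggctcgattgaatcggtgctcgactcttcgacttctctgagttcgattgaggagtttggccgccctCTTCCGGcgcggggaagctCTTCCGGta
Sf3b6 chr12:4817508-4817607: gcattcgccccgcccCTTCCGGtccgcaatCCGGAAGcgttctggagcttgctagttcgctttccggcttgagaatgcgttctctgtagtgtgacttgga
Snrpc chr17:27839987-27840086: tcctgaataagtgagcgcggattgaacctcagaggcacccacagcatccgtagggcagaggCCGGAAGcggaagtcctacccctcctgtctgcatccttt

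The same compound was compared with vehicle in unstimulated cells. There 4 of the 50 tested members (8%) were lower and none was higher by edgeR's quasi-likelihood test, while 2.91% of all genes tested were lower and 4.45% higher. Of the protein-coding genes tested, 3.41% were lower and 5.17% higher. DESeq2 called 6 lower and none higher, against 571 lower and 823 higher of all genes. At an unadjusted p under 0.05, 19 members (38%) differed in either direction by edgeR, against 22.6% of all genes tested. The median log2 difference over the members was -0.28, against -0.01 over all genes tested. The sums of all members were 2183 ± 11.3 CPM with the compound and 2520.3 ± 13.1 CPM with vehicle (SD, n = 2 each), without overlap. In TPM these sums did overlap, at 2620 to 2861 with the compound and 2459 to 3476 with vehicle. The 4 calls rest on few libraries: without either library of unstimulated compound 10 cells, or without unstimulated vehicle library 1, none was called, and without unstimulated vehicle library 2, the one with 26.7% ribosomal RNA, 1 was. On log2(TPM + 1) limma also called none lower, against 89 of all 14011 genes tested.

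The 4 members came from different stages of assembly. U2af1 of U2AF stood at 21.6 and 26.0 CPM with the compound and at 39.4 and 44.3 CPM with vehicle, a log2 difference of -0.82 (SE 0.18, edgeR adjusted p = 0.0212). Snrpd1 of the Sm ring stood at 19.3 and 17.5 CPM against 30.03 and 30.004 CPM, a difference of -0.71 (SE 0.17, edgeR adjusted p = 0.0292). In both genes the groups were apart. Prpf38a of the tri-snRNP group stood at 15.0 and 15.4 CPM against 30.7 and 22.9 CPM, a difference of -0.81 (SE 0.20, edgeR adjusted p = 0.0299). Lsm3 of the U6 ring stood at 15.6 and 17.0 CPM against 28.2 and 26.7 CPM, a difference of -0.75 (SE 0.19, edgeR adjusted p = 0.0308). These 2 did not overlap either. Lsm4, which was higher with the compound in stimulated cells, stood at 30.3 and 24.0 CPM against 17.4 and 18.5 CPM here, a difference of 0.60 that missed the threshold (SE 0.20, edgeR adjusted p = 0.0953).

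Beside these values, the CD4+ T cell markers summed to 1188 to 1361 CPM with the compound and 730 to 843 CPM with vehicle in unstimulated cells, with Cd3g, Trac, Cd5 and Lck called higher. The natural killer cell markers summed to 15.7 to 16.4 CPM against 7.50 to 10.7 CPM, with Gzma called higher and none at 0. The B cell markers summed to 29.7 to 30.7 CPM with the compound and 38.9 to 62.5 CPM with vehicle, without overlap. None of the tested B cell markers was called. Of the 2 CD8 T cell markers, Cd8a was at 0 in the compound libraries. Cd8b1 averaged 6.16 CPM with the compound and 5.67 CPM with vehicle and was not called. The 2 summed to 5.77 to 6.55 CPM with the compound and 4.89 to 6.52 CPM with vehicle. The part of these values in the 4 calls was not tested.

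The comparisons of the compound in the 2 states share no library. All 4 members called lower in unstimulated cells were also called lower in stimulated cells, and all 21 called lower in stimulated cells had a negative log2 difference in unstimulated cells, with a median of -0.53. Over the 50 members, 39 had the same sign in both states, 33 of them negative, and Pearson's r across these genes was 0.44 and Spearman's rho 0.60. Genes are not independent replicates, and this is a description of the members. The same agreement was not calculated over all genes tested, so these values do not set the members apart from other genes. The interaction, which tests whether the compound's difference depended on the state, called 0 of 50 members by edgeR's quasi-likelihood test and 0 by DESeq2, against 1.03% of all genes tested by edgeR. At an unadjusted p under 0.05 it gave 5 members (10%), against 14.6% of all genes tested, so the members' share lay below the background. The smallest of these p-values was that of Prpf3, whose log2 difference was more negative in stimulated cells, by -0.91 (SE 0.26, edgeR adjusted p = 0.123). In coding transcripts alone Prpf3 was called, at -1.22 (SE 0.27, edgeR adjusted p = 0.0467), and without the filter on low counts Sf3a2 was, at -1.07 (SE 0.31, edgeR adjusted p = 0.0379). The other alternatives run called no member for the interaction.

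**Figure D4:**
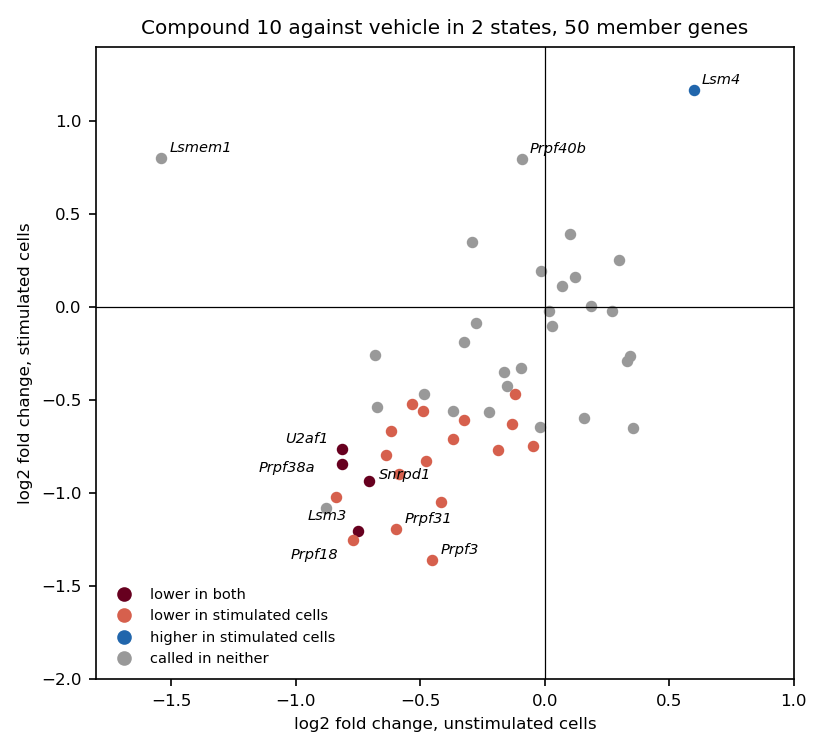
Log2 fold change of each of the 50 tested members with compound 10 against vehicle in unstimulated cells (x axis) and stimulated cells (y axis), coloured by the calls. The 4 members lower in both states lie at the lower left, Lsm4 lies at the upper right at 0.60 and 1.17, and 33 members are negative in both.

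Stimulation itself was compared in vehicle cells. PMA and ionomycin raised 8 of the 50 tested members (16%) and lowered 6 (12%) by edgeR's quasi-likelihood test. Of all genes tested 14.4% were higher and 13.8% lower, and of the protein-coding ones 15.5% and 16.2%, so the called shares of the members lay near the background. At an unadjusted p under 0.05 the members' share was above it. There 30 members (60%) differed in either direction by edgeR, against 38.6% of all genes tested and 42.7% of the protein-coding ones. The median log2 difference over the members was 0.30, against -0.05 over all genes. The balance of higher and lower calls depended on scale. On log2(TPM + 1), all genes shifted to a median of -0.17 and the members' median was -0.0024. There limma called 1 member higher and 4 lower, against 978 higher and 1672 lower of all 14011 genes tested. Median-of-ratios scaling gave 11 members higher and 5 lower, against 2071 higher and 1826 lower of all genes. The members' median was thus above that of all genes on both scales. Without both vehicle libraries richest in ribosomal RNA, 1 member was higher and none lower. Beside these values, the CD4+ T cell markers summed to 1431 to 1868 CPM after stimulation and 730 to 843 CPM before it, with Cd3g, Trac, Cd5 and Lck called higher. The natural killer cell markers summed to 18.2 to 20.2 CPM against 7.50 to 10.7 CPM, with Eomes called higher. The B cell markers summed to 20.8 to 50.2 CPM against 38.9 to 62.5 CPM, with Cd79b called lower. The neutrophil marker S100a8 was called lower, at 0 after stimulation and a mean of 1.24 CPM before it. The part of these values in the members' differences was not tested.

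Snrpd1 led the increases, from 30.03 and 30.004 CPM in unstimulated vehicle cells to 84.3 and 90.3 CPM, a log2 difference of 1.54 (SE 0.17, edgeR adjusted p = 4.76e-05). Prpf38a rose from 30.7 and 22.9 to 53.5 and 52.5 CPM, by 0.98 (SE 0.20, edgeR adjusted p = 0.00273). Snrpa1, the A′ protein of the U2 snRNP, rose from 36.1 and 31.8 to 77.3 and 61.2 CPM, by 1.03 (SE 0.22, edgeR adjusted p = 0.00444). In all 3 genes the stimulated libraries lay above the unstimulated ones. The remaining increases were Snrpb (0.81), Lsm12 (0.67), Prpf3 and Snrpf (0.64 each) and Lsm6 (0.63). All 7 tested members of the Sm ring had a positive difference, from 0.39 to 1.54, and 3 of them were called. The Sm ring summed to 1119.6 ± 41.5 CPM in stimulated and 700 ± 24.7 CPM in unstimulated vehicle cells.

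The 6 decreases included 3 of the 7 members outside the spliceosome. Lsmem1 stood at 0.313 and 0.197 CPM after stimulation against 2.09 and 1.29 CPM before it, a log2 difference of -2.72 (SE 0.74, edgeR adjusted p = 0.0164), all of it near the floor of the counts. Lsm10 gave -0.85 and Lsm11, its partner in the U7 snRNP, gave -0.63. The other 3 were Lsm8 of the U6 ring (-0.69), Sf3b2 of the U2 snRNP (-0.53) and Prpf6 of the tri-snRNP (-0.53). The counts depended on single libraries, and so did those of all genes. Without stimulated compound 10 library 2, 2382 of 13820 genes were higher, against 2011 of 14011 with all libraries. Leaving out unstimulated vehicle library 2 or stimulated vehicle library 1 left 4 increases, and leaving out stimulated compound 10 library 2 gave 19. The decreases went to 0 without stimulated vehicle library 1, to 1 without stimulated vehicle library 2 or either unstimulated vehicle library, and to 3 without either unstimulated compound 10 library.

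Stimulation was also compared among the compound 10 libraries, which were the stimulated and unstimulated arms of the comparisons above. Under the compound, 5 members (10%) were higher and 6 (12%) lower by edgeR's quasi-likelihood test, against 11.0% and 10.8% of all genes tested, and the median over the members was -0.0042. On the log2(TPM + 1) scale all genes had a median of -0.21 and the members one of -0.36. There limma called 1 member higher and 4 lower, against 595 higher and 1745 lower of all 14011 genes tested. Snrpd1 rose from 19.3 and 17.5 CPM to 42.7, 45.1 and 49.1 CPM, by 1.31 (SE 0.16, edgeR adjusted p = 0.000141). Prpf38a rose from 15.0 and 15.4 to 26.7, 29.2 and 32.6 CPM, by 0.95 (SE 0.19, edgeR adjusted p = 0.00312). Both genes were thus raised by stimulation with and without the compound and lowered by the compound in both states. Lsm12 (0.63), U2af1 (0.55) and Snrpg (0.54) also rose. The CD4+ T cell markers summed to 2031 to 2103 CPM after stimulation and 1188 to 1361 CPM before it, with Trac and Lck called higher, and the natural killer cell markers to 20.8 to 29.5 CPM against 15.7 to 16.4 CPM, with Klrd1 and Prf1 called higher. Their part was not tested here either.

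The decreases under the compound were Prpf18, from 35.2 and 24.9 to 19.5, 11.5 and 17.5 CPM (-0.90), Sf3b2 (-0.66), Sf3a3 (-0.59), Prpf4 (-0.55), Prpf6 (-0.52) and Lsm1 (-0.51). They span the catalytic stage, the U2 snRNP, the tri-snRNP and the mRNA decay ring. Leaving out unstimulated compound 10 library 1 left 2 increases and 1 decrease, and leaving out library 2 of that group left 3 and 1. Without stimulated compound 10 library 1 or 3 there were 3 increases, and without stimulated compound 10 library 3 or either unstimulated vehicle library there were 3 decreases.

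The other genes of the pathway, drawn from a list of genes with other letters, were counted in the same way. Of 88 such genes tested, 38 (43.2%) were lower and 1 (1.14%) was higher with compound 10 in stimulated cells. The shares over all genes tested were 11.4% lower and 11.7% higher. The median log2 difference was -0.52 over the 88 genes and 0.0019 over all genes tested. They included 25 lower of 62 genes of the major spliceosome, 10 of 16 genes for snRNP assembly and import, 3 of 5 of the exon junction complex and none of 5 of the minor spliceosome, which removes a rare class of introns. Clns1a, a chaperone that delivers Sm proteins, averaged 15.9 CPM with the compound and 56.7 CPM with vehicle, a difference of -1.83 (SE 0.19, edgeR adjusted p = 0.000103). Wdr77, a subunit of the methylosome that modifies Sm proteins, gave -1.68 and Smn1, the gene of the SMN complex that loads the Sm ring onto RNA, gave -1.67. Crnkl1, a scaffold of the catalytic spliceosome, gave -1.43, and Ctnnbl1 was the only one higher, at 0.78.

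In unstimulated cells, 4 of the 88 (4.55%) were lower with the compound, against 2.91% of all genes, namely Phf5a of the SF3b complex (-0.94), Crnkl1 (-0.86), Ddx46 (-1.28) and Smu1 (-0.76), and Ppil1 was higher, at 1.05. Stimulation of vehicle cells raised 12 of the 88 (13.6%) and lowered 9 (10.2%), shares near or below the 14.4% and 13.8% of all genes. Those raised included Snu13, a U4-binding protein (1.43), Magoh of the exon junction complex (1.45), Wdr77 (1.21) and Zrsr2, which recognises the 3′ splice site of minor introns (1.35). Syf2 was among those lowered, at -1.16. Under the compound 10 (11.4%) were raised and 21 (23.9%) lowered by stimulation, against 11.0% and 10.8% of all genes. The interaction called 1 of the 88 (1.14%, against 1.03% of all genes), Ppil1, at -1.72 (SE 0.32, edgeR adjusted p = 0.0293), which the compound changed by -0.67 in stimulated cells and by 1.05 in unstimulated cells on the log2 scale.

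Many of these genes also make transcripts that are annotated as not coding, with a retained intron, a target of nonsense-mediated decay or a processed transcript. Of the 221 member transcripts in the tables, 106 were coding, 65 had a retained intron, 28 were processed transcripts and 22 were decay targets. For each gene with enough counts in both classes, the log2 ratio of counts outside coding forms to counts in coding forms was compared by limma. None of the 24 members tested was called with compound 10 in stimulated cells, none in unstimulated cells and none with stimulation of vehicle cells. Over the 3855 genes tested the shares called higher and lower were 0.0259% and 0%, 0.104% and 0.0259%, and 0.441% and 0.259%, so the test called almost nothing anywhere. At an unadjusted p under 0.05 these comparisons gave 2, 0 and 1 of the 24 members (8.33%, 0% and 4.17%), below the 11.6%, 8.90% and 13.2% of all genes tested. edgeR's diffSpliceDGE called no member, and 1.71%, 1.25% and 3.24% of all genes tested.

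With the compound in stimulated cells, 18 of the 24 ratios were higher than with vehicle, with a median of 0.24, against 55.0% of the ratios and a median of 0.089 over all genes tested. The count was 14 with the replicate number as a block and 14 without stimulated compound 10 library 3. The members' median was 0.50 without stimulated vehicle library 2, where that of all genes was 0.26, and 0.41 and 0.47 without stimulated compound 10 libraries 1 and 2. Without stimulated vehicle library 1 the median of all genes was -0.12. Prpf3 had the smallest p. Its share of counts outside coding forms was 24.1%, 25.5% and 28.8% with the compound and 6.48% and 11.7% with vehicle in stimulated cells, and the libraries did not overlap. The log2 ratio differed by 1.88 (SE 0.55, limma adjusted p = 0.257). Its estimated counts in coding forms were 128, 127 and 97.1 with the compound against 557 and 463 with vehicle, and those outside them were 40.6, 43.4 and 39.4 against 38.6 and 61.2. These counts are not scaled for depth. The stimulated libraries held 13886789 to 15693035 counts with the compound and 19590608 to 21852830 with vehicle. In unstimulated cells the share was 13.4% and 15.8% with the compound and 8.46% and 21.99% with vehicle, and the groups overlapped. Snrpb was the other member under an unadjusted p of 0.05, with shares of 2.74%, 4.36% and 3.02% against 1.31% and 2.01%, a difference of 1.05 in the log2 ratio (SE 0.40, limma adjusted p = 0.364). How kallisto divides reads among forms that share exons sets these values, so they are estimates.

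**Figure D5:**
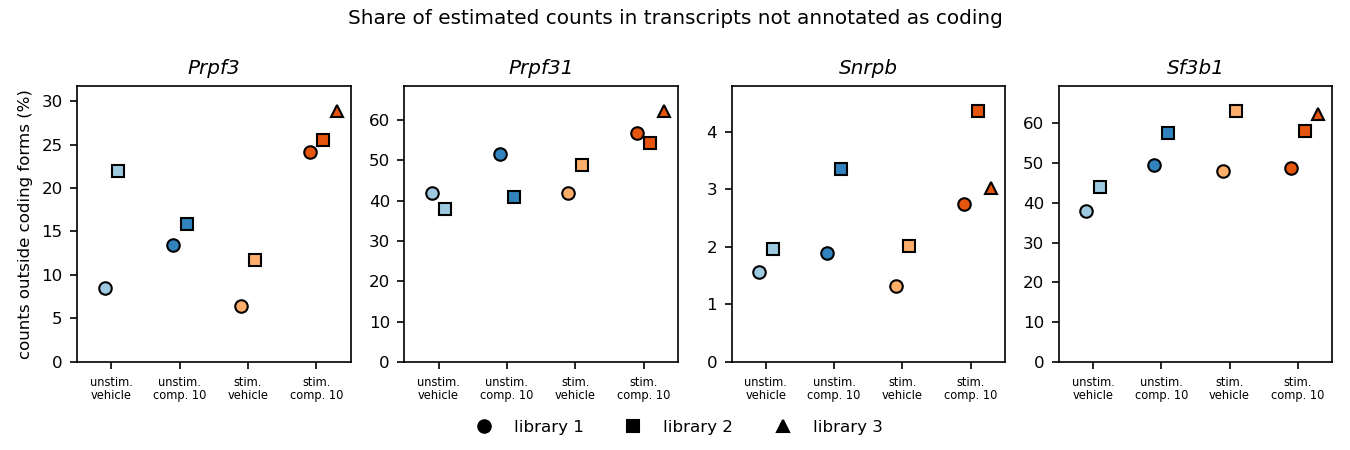
Share of the estimated counts of Prpf3, Prpf31, Snrpb and Sf3b1 that lay in transcripts not annotated as coding, in each library and on axes that start at 0. The stimulated compound 10 libraries of Prpf3 (24.1% to 28.8%) lie above both stimulated vehicle libraries, whereas those of Sf3b1 (48.8% to 62.2%) overlap them.

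Some members share sequence with other genes, which can move estimated counts between them. U2af1 shared 61.8% of the 31-base stretches of its main transcript with the pseudogene Gm10232, although the genes that share them held 8.85 counts over all libraries against 5514 for U2af1. Snrpf shared 92.1% of its stretches, most of them with Ccdc38, and those genes held 3515 counts against 12270 for Snrpf, so its level is uncertain. U2af1l4 shared 97.3% with Gm49396, Lsm7 64.8%, Sf3b4 57.9%, Lsm5 46.3%, Snrpa 41.7%, Snrpe 41.2%, Snrpc 39.0% and U2af2 35.8%, and these too are less certain. Snrpd1 shared 22.7%, with genes that held 1.27 counts against 6403, and 15 of the 51 members shared none. Other members shared smaller stretches with genes that held many counts, so part of their level is uncertain too. Lsm12 shared 16.3% with genes that held 39960 counts against 8960 for Lsm12, and Snrpg shared 19.6% with genes that held 11200 counts against 27170. Prpf3 shared 7.89% with 172 genes, most of it with the pseudogene Gm7933, and those genes held 944400 counts against 2677 for Prpf3. Prpf18 shared 1.29% with 227 genes that held 926300 counts against 4498.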

How the data were processed

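RNA of 9 libraries was sequenced after SMART-seq preparation, per the labels' protocols. The submitters' processing notes name cutadapt, kallisto and mm10; their versions, and the annotation behind the transcripts, are not given in these sources. The deposited tables give, per the file headers, estimated counts and TPM for each transcript, with effective lengths, and the authors did not normalize the counts between libraries. GENCODE M21 held 108214 of the 109617 transcripts of a table, matched without the version; the rest took 0.542% to 0.829% of counts.

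Estimated counts were summed per gene and rounded. Groups came from the titles. All 9 libraries entered 1 model by group in edgeR 4.0.16 (R 4.3.3; filterByExpr, TMM, glmQLFit with robust shrinkage, glmQLFTest, 2-sided, no block), with Benjamini-Hochberg adjustment over the 14011 genes that passed and a threshold of 0.05. CPM use TMM-scaled library sizes. The share of all genes tested whose libraries did not overlap between groups was not calculated. SE is the absolute log2 fold change over the square root of F. Members' median SE was 0.18 for the compound in stimulated and 0.20 in unstimulated cells. Form ratios (pseudocount 1, a mean of at least 10 counts in each class) were tested with limma 3.58.1, and both tests were checked on simulated data. Alternatives were DESeq2 1.42.0, other scalings and filters, log2(TPM + 1) and log2(TPM + 0.1), coding transcripts only, an effective-length offset, a replicate block and leaving out libraries; fits without the vehicle libraries richest in ribosomal RNA and with crossed numbers were chosen after seeing the data.

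Members, role groups, lists and motifs were chosen with earlier results of these data known. Named with values are, in each comparison, up to 8 called members in each direction by p and up to 4 of the other spliceosome genes, plus any member when its role group is described; the promoters and form shares shown were chosen after their values were seen. The values of 1 member are not reported here. Replicates of a group differed beyond sampling noise. Marker lists were fixed for CD4 and CD8 T cells, B cells, monocytes with macrophages and dendritic cells, natural killer cells, neutrophils, and erythroid cells with platelets.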

Additional observations from a re-analysis of the deposited data

How the results depend on the processing

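Where a vehicle or compound group was left with 1 library, that library was assumed to vary like the other groups. No gene named for a call changed direction in the comparison that called it, whereas 75 of 199 differences of members that were not called changed sign in at least 1 alternative. Of the values of the genes named for a call 1064 stayed on their side of the threshold and 288 lost their call. The members' median for stimulation changed sign on the TPM scales in vehicle and, near 0, in several settings under the compound. Counts of called members that moved by over 1.5 times are given here against 21 lower for the compound in stimulated cells, 4 lower in unstimulated cells, 8 higher and 6 lower for stimulation in vehicle, 5 higher and 6 lower under the compound, and 0 for the interaction. On log2(TPM + 1) and on log2(TPM + 0.1) alike they were 7 lower, 0 lower, 1 higher for stimulation in vehicle and 1 higher under the compound. On log2(TPM + 0.1) the median of all genes was -0.28 for stimulation in vehicle and -0.34 under the compound. Without a filter they were 2 lower for stimulation in vehicle, 3 higher under the compound and 1 for the interaction, and with genes averaging at least 1 on the log2 CPM scale they were 14 higher for stimulation in vehicle. With only the groups compared they were 7 lower in unstimulated cells and 1 lower for stimulation in vehicle. Coding transcripts alone gave 14 higher for stimulation in vehicle, 9 higher under the compound and 1 for the interaction, and the effective-length offset gave 5 higher in vehicle and 3 higher and 2 lower under the compound. Without the vehicle libraries richest in ribosomal RNA they were 0 lower in unstimulated cells, 1 higher and 0 lower for stimulation in vehicle and 3 lower under the compound. The share of all genes called in either direction moved as well. For the compound in stimulated cells it was 23.1%, and 8.53% on log2(TPM + 1). For unstimulated cells it was 7.36%, and 1.65% on log2(TPM + 1) and 11.7% with only the groups compared. For stimulation in vehicle it was 28.1%, and 18.9% on log2(TPM + 1), 37.5% with genes averaging at least 1 and 31.9% in coding transcripts. The cause of these moves was not tested. Leaving out 1 library at a time gave 13 to 23 lower for the compound in stimulated cells, 0 to 6 lower in unstimulated cells, 4 to 19 higher and 0 to 5 lower for stimulation in vehicle, and 2 to 6 higher and 1 to 4 lower under the compound.

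The replicate number as a block gave 19 lower in stimulated cells and 4 in unstimulated cells, 7 higher and 5 lower for stimulation in vehicle, 4 higher and 3 lower under the compound, and 0 for the interaction. The differences between libraries 1 and 2 correlated between groups from -0.101 to 0.326, and 3 of 6 pairs of groups were over 0.1, so the numbers were not taken to pair the samples, which may still share a batch; with the numbers of the unstimulated compound 10 libraries crossed, 0 members were lower in unstimulated cells. The form ratio called no member in any alternative run.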

Other observations

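A few members carried large shares of their counts outside coding forms in every group. The share was 57.8% ± 4.02 (SD, n = 3) for Prpf31 in stimulated compound 10 cells and 45.3% ± 4.85 (n = 2) in stimulated vehicle cells, and it was 46.3% ± 7.58 and 39.9% ± 2.84 in the unstimulated compound 10 and vehicle cells. Sf3b1 gave 56.4% ± 6.85 and 55.5% ± 10.7 in the stimulated groups, and 53.6% ± 5.73 and 41.0% ± 4.20 in the unstimulated ones. Prpf38b lay between 46.9% and 49.6% on average in all 4 groups. In Snrpb the share stayed under 5% in every library, at 1.66% ± 0.490 in stimulated vehicle cells and 3.37% ± 0.865 with the compound.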
